A study of Mus musculus with 24 samples.

Results

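The δ-protocadherins are cadherin-family adhesion molecules whose genes lie outside the large Pcdh clusters. The 10 genes described here were taken from the deposited table of 14922 genes by their symbols: Pcdh1, Pcdh7, Pcdh8, Pcdh9, Pcdh10, Pcdh11x, Pcdh17, Pcdh18, Pcdh19 and Pcdh20. All 10 were present. Pcdh7 was the reason for choosing the family, because it was lower in Smchd1 MommeD43 cells of both strains in these same data. Its MommeD43 values are therefore given as a description with no test, and the other 9 genes, chosen by name, were tested.

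Poly(A) RNA was sequenced from primary neural stem cells (NSCs) that were grown from the cortex of female mouse embryos at E14.5 and used at fewer than 10 passages. SMCHD1 is a chromatin protein that silences genes on the inactive X chromosome and at several autosomal clusters, and MommeD43 is a missense allele of Smchd1. FVB_WT (6 libraries of 5 lines) was Smchd1+/+ on FVB/NJ, and FVB_MD43 (5 libraries of 4 lines) was homozygous for the ENU-induced MommeD43 allele on the same background. B6GFP_MD43 (5 libraries of 4 lines) was C57BL/6J, homozygous for an edited MommeD43 allele in Smchd1 fused to GFP. B6GFP_WT (6 libraries of 4 lines) was labelled Smchd1+/+, and the study describes these controls as homozygous for the GFP fusion. Strain and GFP fusion therefore differed together. A line is a separate culture with its own number in the labels, and libraries of the same line were averaged before any mean or SD was taken. Some B6GFP labels share the part before the point, within B6GFP_WT and between B6GFP_WT and B6GFP_MD43. In FVB a MommeD43 line carries the number of a wild-type line with a letter added. The meaning of a shared number is not stated, so these lines may not be independent.

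δ-protocadherins hold cells together by homophilic binding, weakly compared with classical cadherins, and they are known for sorting neurons, guiding axons and shaping synapses in the developing brain. The δ1 members (Pcdh1, Pcdh7, Pcdh9 and Pcdh11x) carry a cytoplasmic motif that binds protein phosphatase 1. The δ2 members (Pcdh8, Pcdh10, Pcdh17, Pcdh18 and Pcdh19) include several that recruit the WAVE complex, which drives actin branching, through Nckap1.

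Pcdh7 (Entrez 54216) occupies chr5:57716145-58133236 on the plus strand of GRCm38.p6. No other protein-coding gene and no other gene of the table starts within 2 Mb of its start. A long non-coding gene, 4932441J04Rik, overlaps its first 1.77 kb and is not in the table. Pcdh17 (Entrez 219228, chr14:84443563-84537565, plus strand) was the member with the highest Pearson's r with Pcdh7 over lines, so the promoter windows of both are shown. Each runs from 250 bases before to 50 bases after a RefSeq transcript start on GRCm38.p6, at chr5:57717831-57718130 for Pcdh7 and chr14:84443313-84443612 for Pcdh17, both plus strand, with every CG dinucleotide in capitals.
Pcdh7: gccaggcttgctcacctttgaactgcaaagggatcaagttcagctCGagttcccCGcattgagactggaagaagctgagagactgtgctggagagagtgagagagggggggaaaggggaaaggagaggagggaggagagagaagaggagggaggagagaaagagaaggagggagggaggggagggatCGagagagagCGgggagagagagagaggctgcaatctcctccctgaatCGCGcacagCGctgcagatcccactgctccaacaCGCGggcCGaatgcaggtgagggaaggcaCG
Pcdh17: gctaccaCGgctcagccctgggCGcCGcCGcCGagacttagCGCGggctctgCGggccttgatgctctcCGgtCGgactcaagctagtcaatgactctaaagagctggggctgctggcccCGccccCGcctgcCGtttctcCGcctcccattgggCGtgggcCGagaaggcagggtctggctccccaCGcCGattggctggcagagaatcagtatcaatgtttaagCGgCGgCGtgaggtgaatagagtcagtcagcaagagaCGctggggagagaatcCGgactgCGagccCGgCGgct
The Pcdh7 window held 11 CG dinucleotides, which read the same on both strands, and 41.4% of all 32851 RefSeq promoter windows held at least as many. It lies inside the gene, downstream of the gene start at 57716145, whereas the Pcdh17 window spans the start of its gene. The first bases of the Pcdh7 window overlap 4932441J04Rik, which ends at 57717919. The Pcdh17 window held 26, a number reached by 16.9% of the windows. RefSeq windows were matched for 8 of the 10 members, and Pcdh20 had the fewest CG dinucleotides among them, 4, against a median of 7 over all windows.

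Of 8 listed NSC markers, Vim averaged 11.1 log2 CPM over lines, Fabp7 10.6, Nes 10.2, Slc1a3 9.78 and Sox2 7.94. Sox1 (5.27), Pax6 (4.97) and Hes5 (3.21, with lines from 0.96 to 5.48) were lower. Map2 (9.76), Olig1 (9.99) and Olig2 (9.16), listed as neuronal or oligodendrocyte-lineage genes, were as high as several NSC markers. CPM is the read count scaled to a common library total, and log2 CPM is its log after batch correction by the authors. None (0) of the 4 microglial markers was in the table. With the deepest library set to 1, batch 1 (both strains) had depths of 0.526 to 0.893, batch 2 (FVB only) of 0.137 to 0.19 and batch 3 (B6GFP only) of 0.435 to 1, and absolute depth is unknown. B6GFP_WT replicate 4 and B6GFP_MD43 replicate 2 stood apart from their groups, with an SD over genes of 0.793 and 0.806 against the mean of their group mates and at most 0.509 in the other libraries. The neuronal genes Tubb3, Dcx and Stmn2 were highest of all 17 lines in B6GFP_MD43 replicate 2 (6.48, 5.20 and 2.97 log2 CPM) and lowest in B6GFP_WT replicate 4 (0.74, -2.13 and -6.05). The astrocyte gene Gfap was highest of all 17 lines in B6GFP_WT replicate 4 (2.72), which was also the highest line in Pcdh7 and Pcdh9. The astrocyte gene Aqp4 was at rank 7 in that line (0.28). The summed level of 5 astrocyte markers was at most 7.01 log2 CPM in B6GFP_WT lines, against 7.44 in FVB_WT and 8.02 in FVB_MD43. B6GFP means or changes are given with and without these lines. Smchd1 itself was at 6.58 to 7.42 log2 CPM over all lines, and a missense allele is not checked by its RNA level.

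Pcdh7, which can tether protein phosphatase 1 and the SET protein at contacts between cells, was at a lower level in MommeD43 lines than in wild-type lines of each strain. Its libraries in FVB_WT were at 5.66, 5.39 and 5.45 log2 CPM in batch 1 and at 5.23, 5.89 and 5.82 in batch 2. In FVB_MD43 they were at 4.89 and 5.39 in batch 1 and at 5.14, 4.50 and 5.22 in batch 2. Every FVB_MD43 line lay below the wild-type mean, but the ranges overlapped, since the highest MommeD43 line (5.30) exceeded the lowest wild-type line (5.23).

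In B6GFP_WT Pcdh7 was at 5.58, 5.80 and 5.83 log2 CPM in batch 1 and at 5.20, 5.60 and 6.63 in batch 3. In B6GFP_MD43 it was at 4.68 and 4.73 in batch 1 and at 3.96, 5.19 and 4.71 in batch 3. All 4 MommeD43 lines lay below all 4 wild-type lines. Over all genes, 0.469% had B6GFP_MD43 lines all below the wild-type lines, and 0.576% had this pattern in FVB. Since Pcdh7 was chosen for its low values, nothing is read from these shares.

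**Figure D1:**
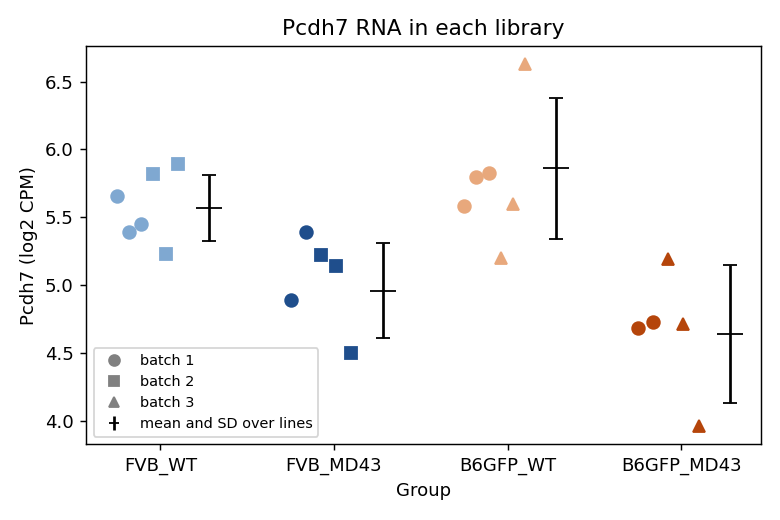
Pcdh7 RNA (log2 CPM, y axis) in each of the 22 libraries by group (x axis), with the batch as the marker shape and the mean and SD over lines as bars. The B6GFP_MD43 libraries sit between 3.96 and 5.19 and the B6GFP_WT libraries between 5.20 and 6.63, while the FVB groups overlap.

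Over the 5 lines of FVB_WT, Pcdh7 averaged 5.57 ± 0.245 log2 CPM (mean ± SD), and over the 4 lines of FVB_MD43 it averaged 4.96 ± 0.349, a difference of -0.61. The averages in B6GFP were 5.86 ± 0.523 (n = 4) and 4.64 ± 0.508 (n = 4), a difference of -1.22. Without the lines that stood apart they were 5.60 ± 0.11 and 4.45 ± 0.429 (n = 3 each).

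The linear model, which weights libraries by quality and takes group and batch as terms, gave a log2 change of -0.31 (SE 0.133) in FVB and -1.04 (SE 0.173) in B6GFP, where it was -1.07 without the lines that stood apart. The FVB value depended on the weights and on FVB_MD43 replicate 2, whose batch 1 library carried the largest weight of all (4.9): it was -0.58 with equal weights, -0.57 without that line and -0.20 without FVB_MD43 replicate 1. Within batches the change was -0.30 in batch 1 and -0.69 in batch 2 for FVB, and -1.01 in batch 1 and -0.83 in batch 3 for B6GFP. The size of the change in FVB was thus less certain than that in B6GFP. The change was below 0 in every fit run, in both strains. Since Pcdh7 was chosen for being lower in these same libraries, that sign is a description. In bulk RNA, fewer cells of a type that expresses the gene and less RNA per cell cannot be told apart.

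The other 9 members were compared in the same fit, to ask whether the family as a whole was lower in MommeD43. In FVB 0 of the 9 passed an adjusted p of 0.05 (limma, Benjamini-Hochberg over all 14922 genes), where 0.0737% of all genes passed, and 1 had an unadjusted p under 0.05, as did 1024 of all genes. Their fitted changes ran from 0.03 (Pcdh9) to 0.27 (Pcdh18), with a median of 0.12 against 0.01 over all genes. In B6GFP 0 of the 9 passed, where 0% of all genes passed, and 0 had an unadjusted p under 0.05, while 319 of all genes did. There the changes ran from -0.26 (Pcdh17) to 0.19 (Pcdh8), with 5 of 9 below 0 and a median of -0.08 against 0.01 over all genes. With FVB_MD43 replicate 2 left out, Pcdh8 passed in FVB (0.76, limma, adjusted p = 0.0438), as did 6.57% of all genes, at a level near 1 CPM where the size of a change depends on the small count added before the log. The lines of MommeD43 and wild type overlapped in all 9 relatives of each strain, where 1.05% of all genes did not overlap in FVB and 1.23% in B6GFP. The sign of the change turned in at least 1 alternative fit for 7 of the 9 genes in FVB and for 5 of the 9 in B6GFP, so no direction is given for the family.

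**Figure D2:**
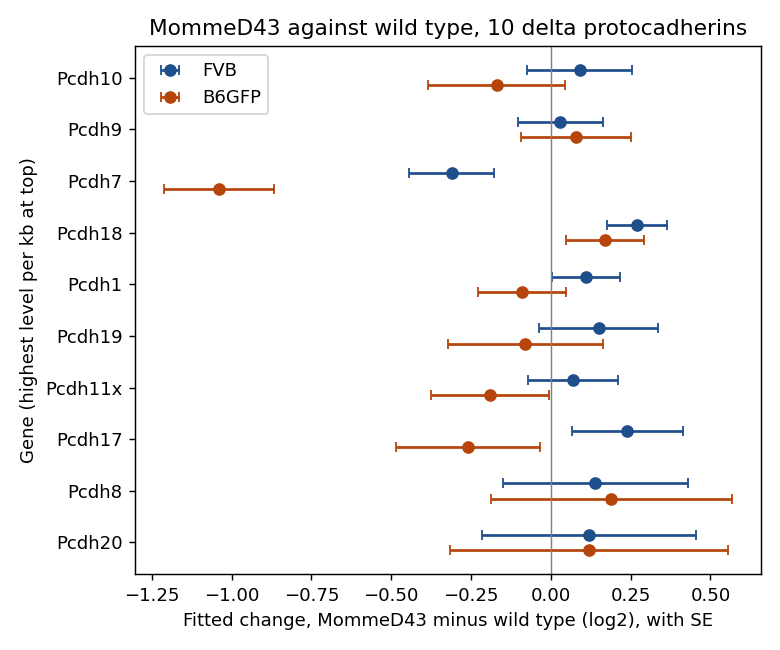
Fitted log2 change of each δ-protocadherin, MommeD43 minus wild type (x axis), in FVB and B6GFP, with bars of 1 SE. Pcdh7 is at -0.31 and -1.04, and the other 9 genes lie between -0.26 and 0.27.

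Averaged over both strains 0 of the 9 relatives passed, where 0.0335% of all genes did. An unadjusted p under 0.05 was found for 1 relative (Pcdh18) and for 690 of all genes. Their average changes ran from -0.06 to 0.22, against -0.67 (SE 0.109) for Pcdh7. The change did not pass a test of the difference between the strains in any relative (0 of 9, with 0 at an unadjusted p under 0.05, and 0% of all genes passing). The largest of these differences was that of Pcdh17, at -0.50 (95% interval -1.10 to 0.09).

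Pcdh18, a δ2 member whose tail binds the adaptor Dab1, had the smallest p of the relatives. Its libraries were at 3.74, 3.72, 3.75, 4.05, 3.79 and 3.40 log2 CPM in FVB_WT and at 3.92, 4.10, 3.99, 3.99 and 4.01 in FVB_MD43. Each of the 4 MommeD43 lines exceeded the mean of wild type, but FVB_WT replicate 4 at 4.05 lay among them, so the groups overlapped. The fitted change in FVB was 0.27 (SE 0.0938, 95% interval 0.08 to 0.47) with an adjusted p = 0.436 from limma. The values by batch were 0.28 in batch 1 and 0.30 in batch 2, neither of which passed. The corresponding change in B6GFP was 0.17 (95% interval -0.09 to 0.42). Its libraries there spread widely, from 3.31 to 4.46 in B6GFP_WT and from 3.66 to 4.90 in B6GFP_MD43, with the highest value of each group in the line that stood apart. Without both lines the fitted change was 0.10.

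Pcdh17, a δ2 member involved in axon extension and presynaptic assembly, had similar means in the FVB groups and a lower mean in B6GFP_MD43 than in B6GFP_WT, without passing in either strain. Its FVB_WT lines averaged 3.27 ± 0.589 log2 CPM and its FVB_MD43 lines 3.25 ± 0.608 (SD, n = 5 and 4). It averaged 3.46 ± 0.517 in B6GFP_WT and 2.91 ± 0.413 in B6GFP_MD43 (n = 4 each), and 3.21 ± 0.189 and 2.82 ± 0.457 without the lines that stood apart (n = 3 each). All 4 B6GFP_MD43 lines were below the wild-type mean, but their highest value (3.20) exceeded the lowest wild-type line (3.0). The fitted B6GFP change was -0.26 (SE 0.226), and limma gave adjusted p = 1. In FVB the fitted change was 0.24 (SE 0.174, limma, adjusted p = 0.889), unlike the difference of line means, and -0.0041 with equal weights. A long non-coding gene that lies within Pcdh17, 9630013A20Rik, was far below it at a mean of -2.67 log2 CPM in FVB_WT and -5.84 in B6GFP_WT, and reads of overlapping genes could not be separated by strand from what is stated.

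Pcdh10, which recruits the WAVE complex and guides striatal and thalamocortical axons, had the highest read level of the family. Its lines spanned 5.38 to 7.10 log2 CPM in FVB_WT, with a median of 6.60, and 5.84 to 7.23 in FVB_MD43, with a median of 6.40. In B6GFP_WT the lines spanned 5.87 to 6.46 with a median of 6.19, and in B6GFP_MD43 they spanned 5.33 to 6.02 with a median of 5.99. The groups of each strain overlapped. The fitted changes were 0.09 (95% interval -0.25 to 0.43) in FVB and -0.17 (95% interval -0.62 to 0.27) in B6GFP. Without the lines that stood apart the B6GFP means were 6.08 ± 0.189 and 5.78 ± 0.39 (n = 3 each).

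Pcdh9, a δ1 member of neurons, averaged 4.98 ± 0.448 and 5.01 ± 0.438 log2 CPM in FVB_WT and FVB_MD43 (SD, n = 5 and 4). It averaged 5.13 ± 0.767 in B6GFP_WT and 4.87 ± 0.372 in B6GFP_MD43 (n = 4 each). The highest line was B6GFP_WT replicate 4 at 6.28, and without the lines that stood apart the means were 4.75 ± 0.119 and 4.74 ± 0.333 (n = 3 each). The 95% intervals of the fitted change were -0.25 to 0.30 in FVB and -0.28 to 0.44 in B6GFP.

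Pcdh1, a δ1 member first known from epithelia, averaged between 3.63 and 3.86 log2 CPM in the 4 groups, with fitted changes of 0.11 in FVB and -0.09 in B6GFP. Its B6GFP means were 3.63 in wild type and 3.75 in MommeD43, and 3.60 ± 0.179 and 3.53 ± 0.0774 without the lines that stood apart (n = 3 each). The X-linked δ1 gene Pcdh11x averaged 4.18 ± 0.505 and 4.09 ± 0.455 in FVB_WT and FVB_MD43 and 4.40 ± 0.244 and 3.91 ± 0.506 in B6GFP_WT and B6GFP_MD43. Its B6GFP difference was smaller without the lines that stood apart, at 4.28 ± 0.076 and 4.16 ± 0.139 (n = 3 each). Pcdh19, the X-linked δ2 gene mutated in an epilepsy that mainly affects heterozygous females, averaged between 3.88 and 4.16 in the 4 groups and had fitted changes of 0.15 in FVB and -0.08 in B6GFP. Without the lines that stood apart its B6GFP means were 3.80 ± 0.227 and 3.78 ± 0.339 (n = 3 each). None of these 3 genes passed in either strain, and the lines of the groups overlapped in each.

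The remaining members were near the bottom of the table. Pcdh8, whose protein promotes the internalisation of N-cadherin at synapses, averaged -0.19 ± 0.843 log2 CPM in FVB_WT, 0.19 ± 0.692 in FVB_MD43, -0.80 ± 0.477 in B6GFP_WT and 0.07 ± 1.14 in B6GFP_MD43. Its highest library, at 1.70, was B6GFP_MD43 replicate 2, the line with the highest Tubb3, Dcx and Stmn2, and without the lines that stood apart the B6GFP means were -0.70 ± 0.528 and -0.47 ± 0.393 (n = 3 each). The part of neuronal cells in these levels was not tested. Pcdh20 averaged -1.18 ± 1.08 in FVB_WT, -0.84 ± 1.02 in FVB_MD43, -1.12 ± 0.173 in B6GFP_WT and -0.81 ± 0.91 in B6GFP_MD43, below 1 CPM in every group. Without the lines that stood apart its B6GFP means were -1.11 ± 0.212 and -1.20 ± 0.56 (n = 3 each), in the opposite order. Fitted differences of Pcdh20 and Pcdh8, in the text and in the plots, depend at such levels on the small count added before the log was taken.

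Per length, the order of the family over the 17 lines was Pcdh10, Pcdh9, Pcdh7, Pcdh18, Pcdh1, Pcdh19, Pcdh11x, Pcdh17, Pcdh8 and Pcdh20, from a mean level of 2.24 log2 CPM per kb of exon for Pcdh10 to -3.45 for Pcdh20. Pcdh10 and Pcdh9 differed by 0.01 ± 0.381 (SD over lines) and kept this order in 10 of 17 lines, so they are not distinguished. Pcdh7 lay 0.37 ± 0.487 below Pcdh9 and 0.34 ± 0.664 above Pcdh18, within the spread over lines on both sides. Pcdh1 and Pcdh19 (0.01 ± 0.404) and Pcdh19 and Pcdh11x (0.28 ± 0.436) were not separated either. Wider steps lay between Pcdh18 and Pcdh1 (0.89 ± 0.343, in 17 of 17 lines), between Pcdh11x and Pcdh17 (0.82 ± 0.388, in 16 of 17), between Pcdh17 and Pcdh8 (1.89 ± 0.865, in 16 of 17) and between Pcdh8 and Pcdh20 (1.09 ± 0.586, in 17 of 17). By group mean, Pcdh7 was at rank 3 in FVB_WT and rank 1 in B6GFP_WT, and at rank 4 in both MommeD43 groups.

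**Figure D3:**
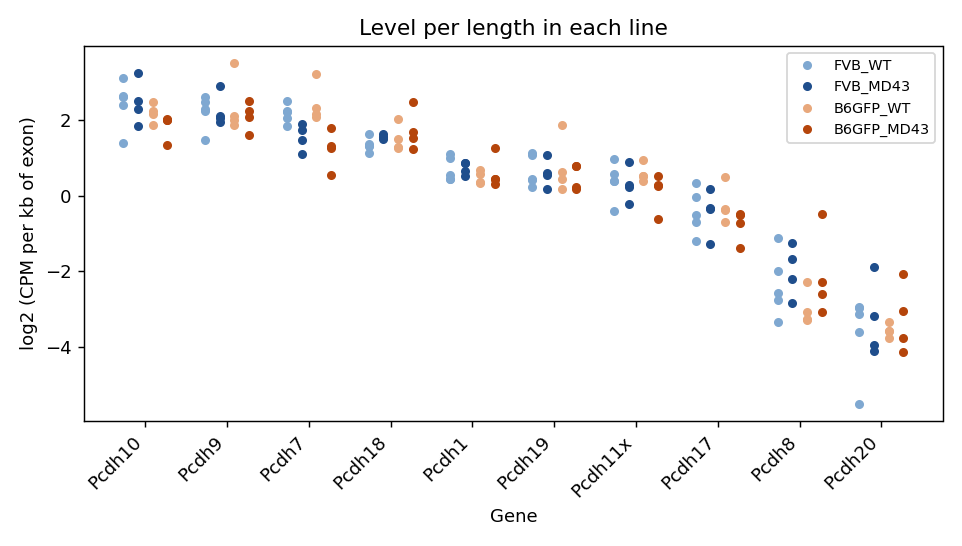
Level of each δ-protocadherin (x axis) as log2 CPM per kb of exon (y axis), with 1 point per line coloured by group. Pcdh10, Pcdh9, Pcdh7 and Pcdh18 form the upper part, Pcdh17 is at rank 8 in every line and Pcdh20 at rank 10 in every line.

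As a share of the summed CPM per kb of the 10 genes, Pcdh7 made up 19.6% ± 1.73 in FVB_WT (SD over lines, range 18.1% to 22.4%) and 13.6% ± 2.84 in FVB_MD43 (10.8% to 17.5%). The share was 22.7% ± 1.02 in B6GFP_WT (21.5% to 23.9%) and 12.6% ± 1.64 in B6GFP_MD43 (10.2% to 13.7%). Since Pcdh7 was chosen for this contrast, its shares are a description. The shares of Pcdh9 and Pcdh10, which add up to the same total, overlapped between MommeD43 and wild type in both strains, at 20.4% ± 1.97 and 21.8% ± 2.29 for Pcdh9 in FVB and 19.2% ± 3.57 and 19.2% ± 2.82 for Pcdh10 in B6GFP. Pcdh18 took 12.0% ± 1.91 in B6GFP_WT (10.5% to 14.8%) and 17.8% ± 2.93 in B6GFP_MD43 (15.8% to 22.2%), a share that also rises when that of Pcdh7 falls.

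In FVB_WT, FVB_MD43 and B6GFP_WT, 1 line was highest in most members and another was lowest in most. FVB_WT replicate 5 was the highest line of its group in 9 of the 10 genes and FVB_WT replicate 4 the lowest in 8. In FVB_MD43, replicate 4 was highest in 8 genes and replicate 5 lowest in 8. In B6GFP_WT, replicate 4 was highest in 7 and replicate 2 lowest in 7. Pcdh18 went the other way in FVB_WT, where it was highest in replicate 4. The FVB lines named here were each a single library of the shallow batch 2 (relative depth 0.137 to 0.165). B6GFP_WT replicate 4 was a single library with the lowest weight (0.101). How often these lines were extreme over all genes was not counted. Setting Pcdh7 against its relatives within each line takes out the part that it shares with their median. Pcdh7 minus the median of the other 9 genes was 1.69 ± 0.146 on the log2 scale in FVB_WT (1.52 to 1.92) and 1.09 ± 0.219 in FVB_MD43 (0.91 to 1.38). It was 1.98 ± 0.166 in B6GFP_WT (1.78 to 2.17) and 0.89 ± 0.395 in B6GFP_MD43 (0.30 to 1.15). On this measure the FVB lines no longer overlapped, and B6GFP_WT replicate 4, the line with the highest Pcdh7 level (6.63), was at 2.17, next to replicate 3 at 2.03.

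The same subtraction was made for every gene as background. MommeD43 lines were all below wild-type lines for 0.275% of genes in FVB, 0.194% in B6GFP and 0.0268% in both strains. The last share is 4 genes, among them Pcdh7. Pcdh7 was chosen for this contrast, so its place among them is a description.

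**Figure D4:**
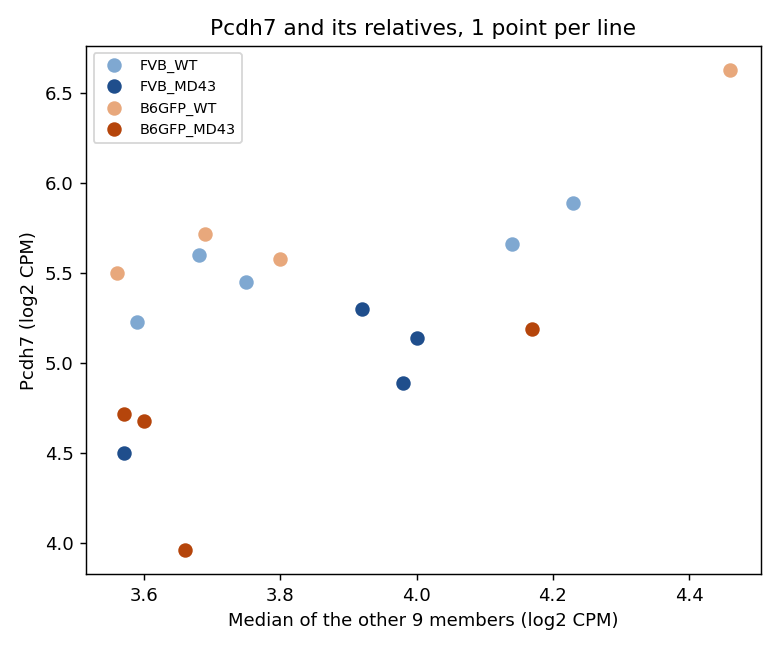
Pcdh7 (log2 CPM, y axis) against the median of the other 9 δ-protocadherins (log2 CPM, x axis), with 1 point per line coloured by group. At a like level of the relatives the MommeD43 lines lie below the wild-type lines of their strain.

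Over the 17 lines, which share batches, depth and the groups themselves, Pearson's r of Pcdh7 with each relative ran from -0.156 (Pcdh8) to 0.74 (Pcdh17). With the group means removed, Pcdh17 (0.844) and Pcdh9 (0.842) were closest, and Pcdh8 (0.292) and Pcdh11x (0.292) least close. Leaving out the lines farthest from the Pcdh7 median (B6GFP_WT replicate 4 and B6GFP_MD43 replicate 4) gave 0.805 for Pcdh17 and 0.752 for Pcdh9 with group means removed, but 0.512 and 0.198 as listed. Among the relatives the closest pairs as listed were Pcdh1 with Pcdh8 (0.868) and Pcdh9 with Pcdh17 (0.857).

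Among 11968 genes with a mean of at least 1 log2 CPM, those with a pattern much like that of Pcdh7 over the 17 lines included Greb1 (r = 0.851, Spearman's rho 0.711), Tax1bp3 (0.817), Cd14 (0.812) and 9530053A07Rik (0.80). Without the lines farthest from the median r was 0.404 to 0.614 for these 4 genes. With group means removed the closest were Mbd5 (0.957), Arhgap20 (0.929), Sema3c (0.927), Map3k13 (0.924) and Nav3 (0.923), none of them among the former. These genes were picked for their high r among all those compared, so their r is a description.

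The wild-type groups were compared to ask whether the family differed between B6GFP and FVB, where strain and GFP fusion changed together. None (0 of 10) of the members passed in limma, where 41.1% of all genes passed, and 0 had an unadjusted p under 0.05. The lines of the groups overlapped in every member, where 15.9% of all genes had lines that did not overlap. The share of all genes passing depended on the weights. With equal weights it was 8.44%, and 0 of the 10 members passed. The B6GFP_WT and FVB_WT libraries are the same ones that enter the MommeD43 comparisons. For Pcdh7 the fitted difference was 0.25 (SE 0.151, 95% interval -0.06 to 0.57), with adjusted p = 0.19 from limma. Pcdh10 was at -0.27 (95% interval -0.65 to 0.12), Pcdh18 at 0.16 (95% interval -0.06 to 0.38) and Pcdh11x at 0.20 (95% interval -0.13 to 0.53). Within batch 1, the batch that held both strains, Pcdh10 passed at -0.29 (limma, adjusted p = 0.0294) among 34.1% of all genes. The lower-level members had wide intervals, as for Pcdh8 at -0.98 to 0.39, so their differences were only loosely bounded.

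**Figure D5:**
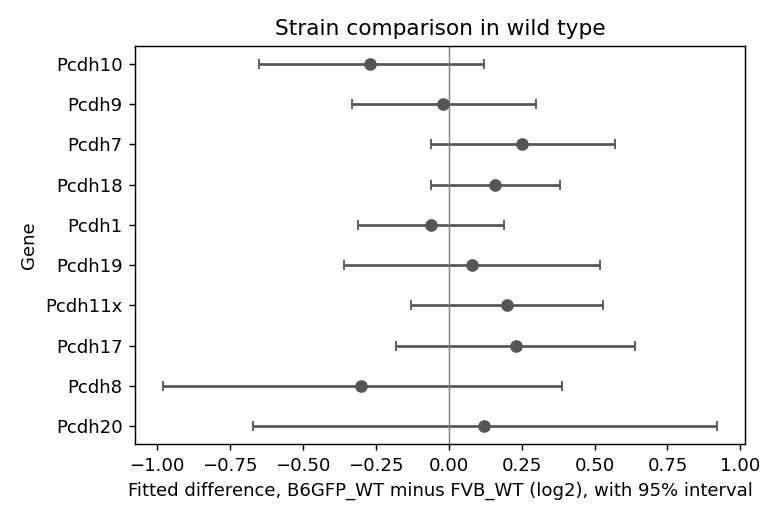
Fitted log2 difference, B6GFP_WT minus FVB_WT (x axis), for each δ-protocadherin, with its 95% interval. Every interval includes 0, and those of Pcdh8 and Pcdh20 are the widest.

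Between the MommeD43 groups, 34.4% of all genes passed, and 6.82% with equal weights. Pcdh7 was lower in B6GFP_MD43 by a fitted difference of -0.47 (SE 0.177), a value that follows from the contrasts it was chosen for. Of the 9 relatives 0 passed and 1 had an unadjusted p under 0.05, Pcdh10 at -0.53 (SE 0.219, 95% interval -0.98 to -0.07, limma, adjusted p = 0.069), with all 4 B6GFP_MD43 lines below the FVB_MD43 mean. Pcdh10 passed when B6GFP_MD43 replicate 1 or 3, FVB_MD43 replicate 2, 4 or 5, or FVB_WT replicate 2 or 5 was left out. Pcdh1 also passed without B6GFP_MD43 replicate 3, and Pcdh1 and Pcdh8 without FVB_MD43 replicate 2. In those fits 33.7% to 54.8% of all genes passed.

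The proteins that bind δ-protocadherin tails were examined as a list of 16 genes (the phosphatase 1 catalytic subunits, Set, the WAVE complex, Dab1, Taok2 and Mapk14), all in the table. With MommeD43 0 of the 16 passed in limma in either strain and 0 had an unadjusted p under 0.05. Of all 14922 genes 0.0737% passed in FVB and 0% in B6GFP, and 1024 and 319 had an unadjusted p under 0.05. Nothing is therefore read from the counts of 0. The median changes of the 16 were -0.02 in FVB and 0.01 in B6GFP. In the wild-type strain comparison 4 of the 16 passed, against 41.1% of all genes. Nckap1, the WAVE subunit that several δ2 tails bind, averaged 8.15 ± 0.0687 log2 CPM over FVB_WT lines and 8.71 ± 0.164 over B6GFP_WT lines (SD, n = 5 and 4), a fitted difference of 0.53 (SE 0.0457, limma, adjusted p = 1.27e-08). Cyfip2, another WAVE subunit, was 6.29 ± 0.222 and 5.43 ± 0.161, a difference of -0.81 (SE 0.118, limma, adjusted p = 1.43e-05). Abi1 (0.15) and Set (0.13) also passed. Nckap1, Set and Cyfip2 passed in the same directions between the MommeD43 groups, at 0.52, 0.22 and -0.50.

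Markers of other cell types were measured beside these results. With MommeD43 0 of 37 markers passed in limma in either strain, where 0.0737% of all genes passed in FVB and 0% in B6GFP. An unadjusted p under 0.05 was found for 4 markers in FVB and 0 in B6GFP, and for 1024 and 319 of all 14922 genes. Between the wild-type strains 17 of the 37 markers passed as lower and 3 as higher in B6GFP_WT, where 41.1% of all genes passed. Of the 8 NSC markers among them 4 were lower and 2 higher. All 5 astrocyte markers (Gfap, Aqp4, S100b, Aldh1l1 and Slc1a2) passed and were lower in B6GFP_WT (limma, adjusted p from 4.93e-05 to 0.00561), with a summed level per line of 6.42 to 7.44 log2 CPM in FVB_WT and 4.98 to 7.01 in B6GFP_WT. The neuronal sum, dominated by Map2, was 9.58 to 9.82 in FVB_WT, 9.68 to 9.88 in FVB_MD43, 9.62 to 9.85 in B6GFP_WT and 9.84 to 10.11 in B6GFP_MD43. The oligodendrocyte-lineage sum was 10.39 to 11.06 over all lines, dominated by Olig1 and Olig2. Of its 6 genes 2 were lower in B6GFP_WT, among them Mbp (-4.49), and Olig2 (0.26) was higher. The part of these cell types in the levels of δ-protocadherins was not tested.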

How the data were processed

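RNA was measured in 24 libraries labelled in 4 groups of 6. Per the labels and the study's methods, 100 ng of RNA went into TruSeq libraries, reads were trimmed with Trim Galore 0.4.4, mapped with HISAT2 2.0.5 to GRCm38.p6 and analysed with limma 3.40.6, and whether counting used strand is not given in the sources used here. The deposited values are log2 CPM, which the authors corrected for batch together with libraries not analysed here. Read counts were not used here, so the voom test of the study's methods was replaced by limma on log2 CPM. FVB_MD43 replicate 3 and B6GFP_MD43 replicate 2 of batch 1 equalled the mean of their group mates in every gene (within 1e-06) and were left out, which left 22 libraries.

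The lowest values of every library were whole multiples of a step of 1 read (100%, tolerance 0.02), which gave relative depth. Since absolute depth is unknown, no counting interval is given.

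The linear models (limma 3.58.1, R 4.3.3) were fitted over all 14922 genes, with group and batch as terms, array quality weights (0.101 to 4.9), a mean-variance trend and the line as a block (consensus correlation 0.0827). P-values were adjusted by Benjamini-Hochberg with a threshold of 0.05. P-values measure the weighted spread between the 22 libraries, pooled over the groups. Repeat libraries of a line entered as separate values, correlated at 0.0827. The scripts were tested on simulated data with known changes. Exon lengths are the union of GENCODE exons (10.6 kb for Pcdh7). The members, lists, markers and naming rule (all 10 members, up to 5 passing genes per list, and the 5 genes most correlated with Pcdh7 as listed and with group means removed) were chosen with earlier results of these data known. Some genes that the rule names are not reported here. Alternatives were other weights, blocks, scalings and filters, single batches and leaving out each line. Leaving out batch 2, and leaving out both lines that stood apart, were chosen after seeing the data.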

Additional observations from a re-analysis of the deposited data

Results flagged for a closer look

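Of 40 groups of line values (10 genes in 4 groups), 5 held a line far from the others by Dixon's gap test at the 95% level, where chance gives about 1 in 20. Pcdh9 stood out in B6GFP_WT replicate 4 (6.28 log2 CPM) and in FVB_MD43 replicate 4 (5.66), each the highest of its group. Pcdh1 stood out at 4.41 in B6GFP_MD43 replicate 2, the line with the highest Tubb3, Dcx and Stmn2. Pcdh10 stood out at 5.33 in B6GFP_MD43 replicate 4, which was also lowest in Pcdh7 (3.96). Pcdh20 stood out at -3.06 in FVB_WT replicate 4, a shallow batch 2 library of a gene below 1 CPM. No line of Pcdh7 stood out.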

How the results depend on the processing

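Of the 9 relatives 0 passed with MommeD43 in FVB, in B6GFP or averaged over strains, with these exceptions. With all 24 columns, in which columns equal to a mean shrink the spread, 1 relative passed in FVB and 1 averaged over strains, in both cases Pcdh18 (limma, adjusted p = 0.0394 in FVB). There 3.42% of all genes passed in FVB and 6.77% averaged over strains. Leaving out 1 line gave 0 to 1 passing in FVB and 0 in B6GFP. The 1 was Pcdh8 without FVB_MD43 replicate 2, where 6.57% of all genes passed. Pcdh7 in FVB was -0.69 within batch 2 and from -0.57 to -0.20 with a line left out, and in B6GFP it was from -1.10 to -0.97. In the wild-type strain comparison 1 member passed with the replicate block (Pcdh7, 0.32), 1 within batch 1 and 1 without batch 2 (Pcdh10 in both, -0.29 and -0.28). The share of all genes passing was 46.0% with the replicate block, 34.1% within batch 1 and 36.9% without batch 2. With equal weights 0 members passed, and the share fell to 8.44%. Between the MommeD43 groups the count over all 10 members includes Pcdh7, for which it is no test since its values chose it, and nothing is read from it. That count was 1 (Pcdh7), where 34.4% of all genes passed. It was 0 with equal weights, with libraries centred on their median and without the trend. In these fits 6.82%, 35.4% and 33.3% of all genes passed, in that order. It was 9 with all 24 columns, where 93.8% of all genes passed. With a line left out it was 0 to 3. There 31.1% to 32.8% of all genes passed in the fits with 0, and 40.2% and 54.8% in the fits with 3. The causes were not tested.

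No general pairing by replicate number was seen in the values. Same-numbered lines had correlations of -0.484 to 0.138 in FVB and -0.355 to 0.131 in B6GFP, and 1 of 4 in each strain correlated best with its own number. In B6GFP this was replicate 3 (0.131), whose line labels share the part before the point. In the wild-type comparison Pcdh7 passed with the replicate block, as did 46.0% of all genes, and in the MommeD43 comparisons the count of relatives passing stayed at 0. Between the MommeD43 groups 1 relative passed under that block, within batch 1 and without batch 2 (Pcdh10 in each), and 1 with line means (Pcdh1). In these fits 32.6%, 24.1%, 31.2% and 44.5% of all genes passed, in that order.

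Signs turned as follows, on the log2 scale. With the replicate block, FVB changes were -0.11 (Pcdh8), -0.01 (Pcdh9), -0.03 (Pcdh10) and -0.18 (Pcdh20), Pcdh20 was -0.30 in B6GFP, and its wild-type strain difference was -0.16. With equal weights they were -0.10 (Pcdh11x), -0.0041 (Pcdh17) and -0.04 (Pcdh19) in FVB, 0.14 (Pcdh1) and -0.17 (Pcdh9) in B6GFP, and 0.10 (Pcdh9) between strains. With line means they were -0.09 (Pcdh9) and -0.10 (Pcdh11x) in FVB and -0.09 (Pcdh19) between strains. Within batch 1 they were -0.07 (Pcdh9) in FVB and -0.15 (Pcdh8) and -0.02 (Pcdh20) in B6GFP. Within batch 2 they were -0.08 (Pcdh9), -0.31 (Pcdh10), -0.28 (Pcdh11x), -0.18 (Pcdh17), -0.19 (Pcdh19) and -0.41 (Pcdh20). Within batch 3 they were 0.26 (Pcdh1) and -0.09 (Pcdh20). Without batch 2 Pcdh9 was -0.07 in FVB. With all 24 columns Pcdh1 was 0.05 and Pcdh9 -0.03 in B6GFP. With median centring the strain differences were 0.03 (Pcdh1) and 0.05 (Pcdh9), and with lines of a shared number as a block that of Pcdh9 was 0.0024.

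With a line left out, FVB changes ran from -0.12 to 0.76 (Pcdh8), -0.08 to 0.08 (Pcdh9), -0.06 to 0.18 (Pcdh10), -0.04 to 0.13 (Pcdh11x) and -0.16 to 0.48 (Pcdh20). B6GFP changes ran from -0.16 to 0.40 (Pcdh8), -0.01 to 0.12 (Pcdh9), -0.41 to 0.11 (Pcdh19) and -0.44 to 0.48 (Pcdh20), and strain differences from -0.17 to 0.10 (Pcdh1), -0.08 to 0.04 (Pcdh9), -0.21 to 0.48 (Pcdh19) and -0.03 to 0.32 (Pcdh20). Each of these ranges spans 0. Pcdh8 and Pcdh20, near or below 1 CPM, had the widest standard errors of the 10 genes in each comparison.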

Other observations

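Other cadherins were measured in the same fit. With MommeD43 0 of 22 classical cadherins and catenins passed in limma in either strain (2 in FVB and 0 in B6GFP at an unadjusted p under 0.05), with median changes of 0.02 in FVB and 0.01 in B6GFP. Of 14 atypical cadherins 0 passed in either strain (1 and 0 at an unadjusted p under 0.05), with medians of 0.08 and -0.01. Over all 14922 genes 0.0737% passed in FVB and 0% in B6GFP, and 1024 and 319 had an unadjusted p under 0.05. Nothing is therefore read from the counts of 0.

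Between the wild-type groups of the strains 3 of the 22 classical cadherins and catenins passed, where 41.1% of all genes did. Cdh13, the cadherin anchored to the membrane by a lipid, averaged 6.22 ± 0.125 log2 CPM over FVB_WT lines and 6.67 ± 0.31 over B6GFP_WT lines (SD, n = 5 and 4), a fitted difference of 0.47 (SE 0.0836, limma, adjusted p = 0.000128). Cdh6 (-0.48) and Ctnnd1, which encodes p120 catenin (-0.14), were lower in B6GFP_WT. Between the MommeD43 groups, where 34.4% of all genes passed, 0 of the 22 passed in limma and 1 had an unadjusted p under 0.05. Of the 14 atypical cadherins 5 passed. Cdhr1, a photoreceptor cadherin, was 2.03 ± 0.709 in FVB_WT and 3.09 ± 0.279 in B6GFP_WT, a fitted difference of 1.60 (SE 0.265, limma, adjusted p = 6.94e-05). Celsr1, a planar polarity cadherin, was lower in B6GFP_WT (-0.74), and Dchs1 (0.33), Celsr2 (0.25) and Fat1 (0.19) were higher. Cdhr1, Dchs1 and Celsr1 passed in the same directions between the MommeD43 groups, at 1.54, 0.42 and -0.65.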
